A study of Homo sapiens with 6 samples.

Results

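The 10 genes described here carry the path from citrulline to arginine and on to the polyamines: ASS1, ASL, ARG2, OAT, ODC1, SRM, SMS, SAT1, AMD1 and AZIN1. They are 10 of the 56637 gene symbols measured. ASS1 was chosen by its large difference in the very comparison reported here, and the other 9 were named for their place in the pathway with earlier results of these data known. All values of the 10 genes in this comparison are therefore a description.

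The RNA came from MM.1S, a human multiple myeloma line (a cancer of antibody-secreting plasma cells), transduced by lentivirus and selected with puromycin in both groups. The shKDM6B group (3 libraries) carried a short hairpin RNA (shRNA) against KDM6B, the gene of a demethylase acting on lysine 27 of histone H3. The shLuc group (3 libraries) carried an shRNA against luciferase, a gene these cells lack. The labels name 1 line, no second KDM6B hairpin and no rescue, so effects of losing KDM6B and other effects of that hairpin cannot be told apart.

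Arginine is made from citrulline in a pair of steps: argininosuccinate synthase (ASS1) joins citrulline to aspartate, and argininosuccinate lyase (ASL) splits the product into arginine and fumarate. Arginase turns arginine into ornithine, which ornithine decarboxylase (ODC1) turns into putrescine, the smallest polyamine. Aminopropyl groups made from S-adenosylmethionine then extend putrescine to spermidine and spermine, small positively charged molecules that bind nucleic acids and are needed for growth. Many tumour cells have low ASS1 and depend on arginine from outside, which is why enzymes that destroy arginine are studied as cancer drugs.

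ASS1 has many near-copies in the genome, so its sequence matters for what a count of it means. ASS1 lies at chr9:130444929-130501274 on the plus strand of GRCh38, and its processed pseudogene ASS1P12, an intronless copy, lies at chr9:32945996-32947222, also on the plus strand. In GENCODE release 29, over 1227 aligned bases, the copy was 93.2% identical to the 1239-base coding sequence, with 84 mismatches and 6 gap positions. Of the 1190 windows of 50 bases in that coding sequence, 18 (1.51%) occurred unchanged in ASS1P12. A read of that length from the rest of the coding sequence carries at least 1 base or gap that separates the gene from this copy.

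The promoters of 3 of the genes share a short motif, shown here because ASS1 stood apart from the other 2 in the values that follow. The letters CACGTG, the E-box read the same on both strands and bound by MYC and related factors, were searched in RefSeq windows of GRCh38.p14 running from 250 bases before to 50 after a gene's start. They occurred in 3 of the 13 windows examined for 9 of the genes, and in 2548 of all 35116 windows (7.26%). AZIN1 was not examined. ASS1 and ODC1 each also had a window without these letters, and the ODC1 window with them held another match just past its start. The 46 bases around the match upstream of each start are printed 5′ to 3′ on the gene's strand, with CACGTG in capitals.
ASS1: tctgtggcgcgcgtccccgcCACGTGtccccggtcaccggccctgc
ODC1: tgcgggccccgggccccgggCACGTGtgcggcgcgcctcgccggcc
SRM: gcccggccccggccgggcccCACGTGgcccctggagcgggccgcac
They lie at chr9:130444870-130444915 (plus strand) for ASS1, chr2:10448016-10448061 (minus strand) for ODC1 and chr1:11060192-11060237 (minus strand) for SRM. A match to these letters is a description and not a measured binding site.

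Library totals ran from 7952156 to 9848351 counts in shKDM6B and from 7338393 to 8996159 in shLuc. KDM6B itself had 239, 270 and 348 counts in shKDM6B replicates 1 to 3 and 409, 505 and 437 in shLuc replicates 1 to 3. Its mean level in shKDM6B was 60.6% of that in shLuc (log2 fold change -0.71, SE 0.073, edgeR adjusted p = 7.72e-08). Of 13839 genes tested, 2783 (20.1%) were past an adjusted p of 0.05 and higher in shKDM6B, and 2622 (18.9%) were past it and lower. With TMM factors computed over sparsely counted genes (under 0.03 counts per exon base), that split was 3201 higher and 1823 lower. The 8 plasma cell markers summed to between 2346 and 2643 CPM (counts scaled to library size) in shKDM6B and between 2494 and 2716 CPM in shLuc, none of them at 0. CD38 (log2 fold change -0.45, adjusted p = 3.88e-07) and TNFRSF17 (-0.37, adjusted p = 2.2e-06) were lower, PRDM1 was higher (0.15, adjusted p = 0.017), and the other 5 did not pass. KRT5, a skin keratin, had 53, 110 and 0 counts in shKDM6B replicates 1 to 3 and 28, 4 and 0 in shLuc replicates 1 to 3; shKDM6B replicates 1 and 2 and shLuc replicate 1 are called below the 3 libraries highest in KRT5.

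ASS1 was higher in every shKDM6B library than in any shLuc library. Its raw counts were 90, 100 and 108 in shKDM6B replicates 1 to 3 and 20, 31 and 6 in shLuc replicates 1 to 3. The 95% counting intervals lay between 72.4 and 130 counts in shKDM6B and between 2.2 and 44 counts in shLuc, and cover counting error only. Scaled to CPM with edgeR's TMM factors, the mean was 11.4 ± 0.52 in shKDM6B and 2.30 ± 1.47 in shLuc (SD, n = 3 each). The log2 fold change was 2.33 with an SE of 0.25, a 5.02-fold difference. The shKDM6B libraries were close to each other, whereas shLuc replicate 3 held far fewer counts than the other shLuc libraries although it was the deepest of them.

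Where ASS1 stood among all genes was part of why it was chosen. By log2 fold change it was number 2 of the 2594 higher genes with a mean of at least 5 CPM, below AK4 (2.51) and just above AHNAK (2.31). Leaving out 1 library at a time moved its log2 fold change between 1.84 (without shLuc replicate 3) and 2.83 (without shLuc replicate 2). Without the 3 libraries highest in KRT5, which leaves a lone shKDM6B library, it was 2.39. ASS1 is abundant in some epithelia and in liver. Of 10 keratinocyte and epithelial markers, 5 were tested and 1 was at 0 throughout. Past the threshold, 3 (KRT5, KRT14 and KRT19) were higher, with groups that overlapped, and 1 (KRT10) was lower. EPCAM did not pass (log2 fold change -0.83, adjusted p = 0.068), at low counts and with every shKDM6B library below every shLuc library. KRT10 had 393, 401 and 423 counts in shKDM6B replicates 1 to 3 and 390, 469 and 462 in shLuc replicates 1 to 3. With KRT10 left out, the markers summed to 32.7, 43.8 and 1.71 CPM in shKDM6B replicates 1 to 3 and 11.6, 2.93 and 2.97 CPM in shLuc replicates 1 to 3. On the same scale ASS1 had 11.4, 11.9 and 10.9 CPM in shKDM6B replicates 1 to 3. In shLuc replicates 1 to 3 it had 2.74, 3.49 and 0.659 CPM. Within shKDM6B the sums and ASS1 were both highest in replicate 2 and lowest in replicate 3, though ASS1 differed little. Within shLuc the sum was highest in replicate 1 and ASS1 in replicate 2. The 5 hepatocyte markers summed to at most 0.302 CPM in shKDM6B and 0.225 CPM in shLuc, with 3 at 0 throughout and none tested. Erythroid markers summed to between 10.5 and 13.2 CPM in shKDM6B and between 19.4 and 23.6 CPM in shLuc, nearly all from HBB, which was lower (-0.81, adjusted p = 5.75e-06). T cell markers summed to between 5.12 and 6.44 CPM in shKDM6B and between 7.94 and 10.1 CPM in shLuc, mostly from CD3E, which was lower (-0.59, adjusted p = 0.0073). Myeloid and fibroblast markers overlapped between the groups, at no more than 3.93 CPM in shKDM6B and 3.38 CPM in shLuc. The part of other cell types or stray RNA in the ASS1 values was not tested. As in any bulk RNA sample, a larger share of cells with ASS1 and more ASS1 RNA in each cell cannot be told apart.

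In the pseudogene row the groups overlapped. ASS1P12 had 28, 33 and 36 counts in shKDM6B replicates 1 to 3 and 25, 35 and 21 in shLuc replicates 1 to 3. Its log2 fold change was 0.21 (SE 0.22, adjusted p = 0.50). ASS1 had 3.21, 3.03 and 3.00 times as many counts as ASS1P12 in shKDM6B replicates 1 to 3, against 0.800, 0.886 and 0.286 times in shLuc replicates 1 to 3. Of 9 ASS1 pseudogene rows examined, 6 were at 0 in every library and the remaining 2 besides ASS1P12 had at most 6 counts. How reads that match several places were counted is not given in the sources used here, so some exchange between ASS1 and ASS1P12 was not tested.

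**Figure D1:**
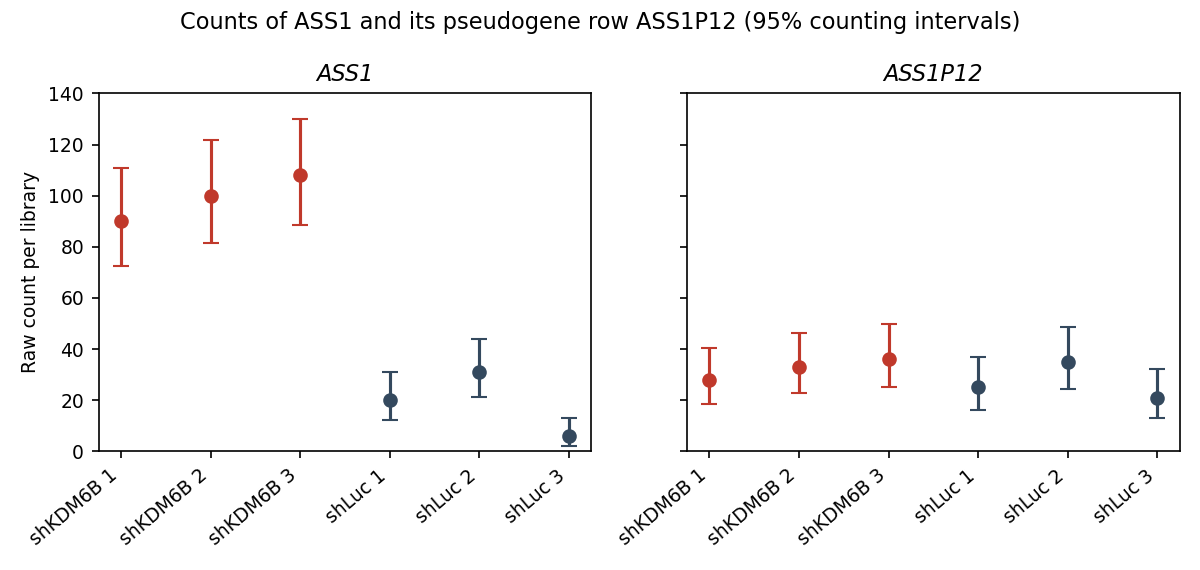
Raw counts of ASS1 (left panel) and of its pseudogene row ASS1P12 (right panel) in each library, with the 3 shKDM6B libraries left of the 3 shLuc libraries; bars are 95% Poisson intervals, which cover counting error only. ASS1 lies between 90 and 108 counts in shKDM6B and between 6 and 31 in shLuc, whereas ASS1P12 lies between 28 and 36 in shKDM6B and between 21 and 35 in shLuc.

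The 5 genes whose levels ran most like those of ASS1 over the 6 libraries were CHAC1, ASIC1, SLC6A9, AHNAK and AK4. Likeness was the root mean square difference of log2(CPM + 0.5), centred on each gene's mean, among 11212 other genes with a mean of at least 5 CPM. The distances were 0.45 for CHAC1, 0.56 for ASIC1, 0.57 for SLC6A9, 0.57 for AHNAK and 0.61 for AK4. CHAC1, an enzyme that breaks down glutathione, had 14.0, 13.6 and 14.7 CPM in shKDM6B replicates 1 to 3 and 4.93, 5.07 and 2.86 CPM in shLuc replicates 1 to 3. Like ASS1, it was lowest in shLuc replicate 3. SLC6A9, a glycine transporter, had 46.7, 51.5 and 48.3 CPM in shKDM6B replicates 1 to 3 and 14.0, 14.4 and 13.1 CPM in shLuc replicates 1 to 3. These genes were picked by their likeness, which the difference between the groups dominates, and no test was made.

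ASL, the enzyme next after ASS1, differed in the same direction by a far smaller amount. It had 381, 389 and 476 counts in shKDM6B replicates 1 to 3 and 291, 377 and 358 in shLuc replicates 1 to 3. After scaling the groups did not overlap, at 47.5 ± 1.1 CPM in shKDM6B and 40.5 ± 1.7 CPM in shLuc (SD, n = 3 each). The log2 fold change was 0.23 (SE 0.060, adjusted p = 0.0041), and the adjusted p was 0.071 with DESeq2. Without the 3 libraries highest in KRT5 the log2 fold change was again 0.23, with a lone shKDM6B library left and the call lost. For each count of ASL there were 0.236, 0.257 and 0.227 counts of ASS1 in shKDM6B replicates 1 to 3, against 0.0687, 0.0822 and 0.0168 in shLuc replicates 1 to 3. Every shKDM6B ratio was above every shLuc ratio, which was given in advance because ASS1 was chosen by its difference.

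ARG2, the mitochondrial arginase that yields ornithine, was the gene with the lowest level of the 10 per kilobase of exon. Its counts were 20, 17 and 20 in shKDM6B replicates 1 to 3 and 5, 20 and 21 in shLuc replicates 1 to 3. The groups overlapped, and shLuc replicate 1 alone was low. The log2 fold change was 0.26 (95% interval -0.40 to 0.92), and without shLuc replicate 1 it was -0.07, so neither a direction nor a moderate change can be read at this depth. ARG2 overlaps VTI1B on the other strand, and because the library kit as named does not mark strand, reads from the overlap cannot be assigned.

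OAT, which links ornithine to glutamate and proline in mitochondria, had 692, 692 and 794 counts in shKDM6B replicates 1 to 3 and 616, 755 and 790 in shLuc replicates 1 to 3. At 83.4 ± 4.0 CPM in shKDM6B and 85.4 ± 1.3 CPM in shLuc (SD, n = 3 each), the groups overlapped. The log2 fold change of OAT was -0.04, with a 95% interval of -0.14 to 0.06.

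**Figure D2:**
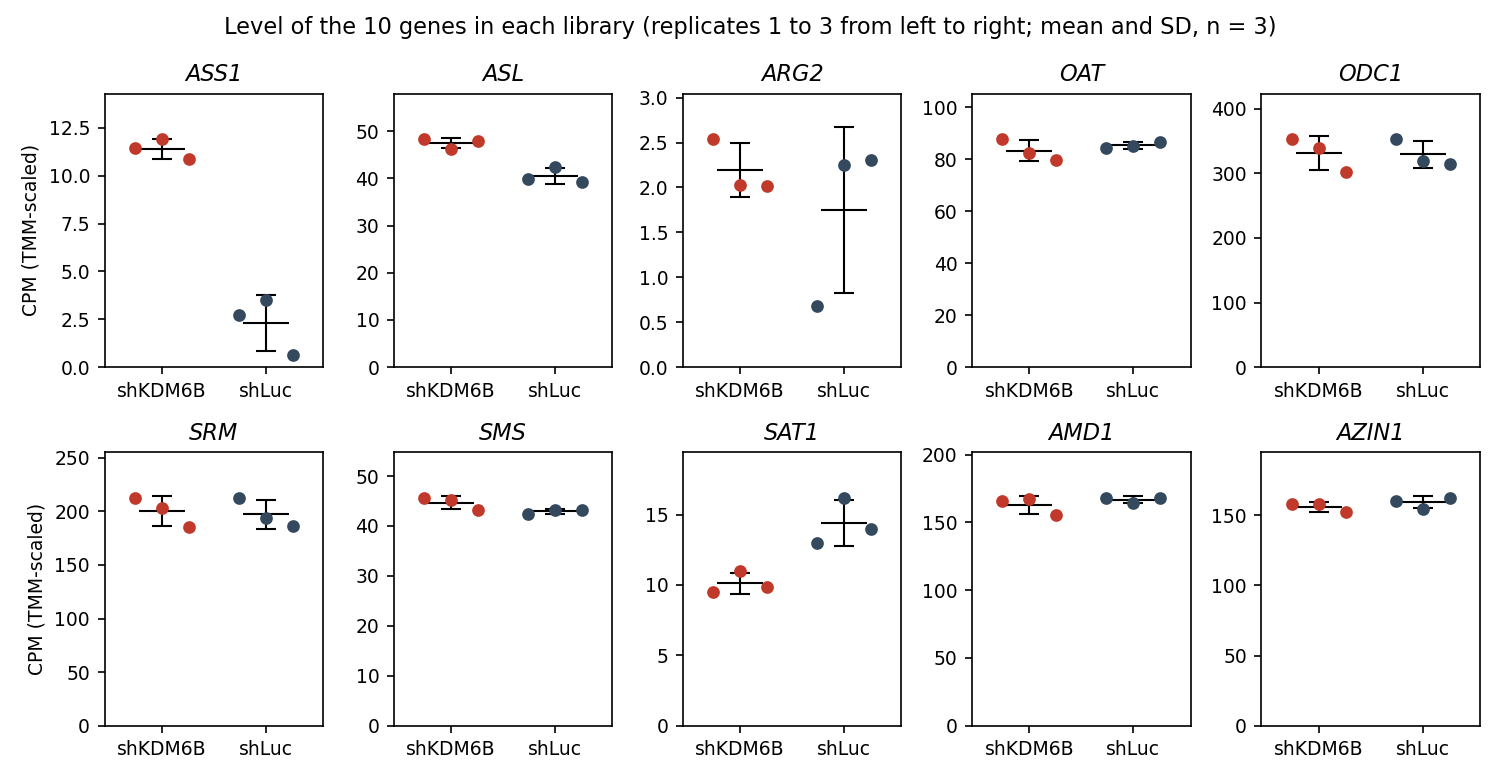
Level of each of the 10 genes in CPM scaled with TMM factors, 1 panel per gene, with the 3 shKDM6B libraries (red) left of the 3 shLuc libraries (dark blue) and replicates 1 to 3 from left to right within a group; horizontal lines are means and bars are SDs. ASS1 and ASL have all shKDM6B points above all shLuc points, SAT1 has them below, and the groups overlap in the other 7 panels.

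In the polyamine-making enzymes the groups overlapped, and no difference was past the threshold. ODC1, which makes putrescine and is a classic target of MYC, had 2781, 2852 and 2998 counts in shKDM6B replicates 1 to 3 and 2577, 2839 and 2865 in shLuc replicates 1 to 3. The difference for ODC1 was 0.01 on the log2 scale (95% interval -0.11 to 0.13). SRM, spermidine synthase, had 1678, 1709 and 1839 counts in shKDM6B replicates 1 to 3 and 1551, 1720 and 1695 in shLuc replicates 1 to 3. SRM's log2 fold change was 0.02 (95% interval -0.09 to 0.13). Both genes overlapped between the groups. ASS1, which shares the E-box letters with them, did not, but it was chosen by its difference. Nothing about the motif is read from that contrast.

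Counts of these 2 genes grew less with depth than the library totals. The deepest shKDM6B library held 1.24 times the total of the shallowest, but 1.08 times its ODC1 counts and 1.10 times its SRM counts. In shLuc the total differed 1.23 times, ODC1 1.11 times and SRM 1.09 times. ODC1 and SRM were also the densest of the 10 genes, at 0.950 and 0.895 counts per exon base in the mean library. ASL, at 0.119 counts per base, differed 1.25 times in shKDM6B and 1.23 times in shLuc, much as the totals did. The part of this slower growth in the small differences of ODC1 and SRM was not tested.

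SMS, spermine synthase, had 360, 379 and 429 counts in shKDM6B replicates 1 to 3 and 309, 384 and 394 in shLuc replicates 1 to 3. The difference for SMS was 0.05 on the log2 scale (95% interval -0.07 to 0.18). AMD1 makes the aminopropyl donor that both synthases use, and had 1308, 1405 and 1545 counts in shKDM6B replicates 1 to 3 and 1229, 1456 and 1531 in shLuc replicates 1 to 3. For AMD1 the log2 fold change was -0.04 (95% interval -0.13 to 0.05). AZIN1 protects ornithine decarboxylase from the antizymes that send it for degradation, and had 1247, 1327 and 1511 counts in shKDM6B replicates 1 to 3 and 1173, 1372 and 1481 in shLuc replicates 1 to 3. For AZIN1 the log2 fold change was -0.03 (95% interval -0.12 to 0.06). All 3 overlapped between the groups, and their intervals leave room for changes of up to 0.18 on the log2 scale.

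SAT1, the acetyltransferase that marks spermidine and spermine for breakdown or export, was the only one of the 10 genes past the threshold in the lower direction. It had 75, 92 and 98 counts in shKDM6B replicates 1 to 3 and 95, 144 and 127 in shLuc replicates 1 to 3. On the scaled level no shKDM6B library reached the lowest shLuc library, with 10.1 ± 0.75 CPM in shKDM6B and 14.4 ± 1.6 CPM in shLuc (SD, n = 3 each). The log2 fold change was -0.52 (SE 0.12, adjusted p = 0.0016), and it stayed past the threshold in all 16 alternative settings, between -0.61 and -0.42. SAT1 had low counts, and its interval ran from -0.77 to -0.26.

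In all, 2 of the 10 genes were past the threshold and higher (ASS1 and ASL) and 1 was past it and lower (SAT1), beside 20.1% and 18.9% of all tested genes. The same 2 and the same 1 had groups that did not overlap, beside 24.5% of tested genes with every shKDM6B library higher and 23.9% with every one lower. The median log2 fold change of the 10 was 0.02, beside -0.01 over all tested genes. All 10 passed the filter on low counts, ASS1 with at least 10 counts in 5 of the 6 libraries. Since the members were picked with these results known, nothing is read from those counts.

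**Figure D3:**
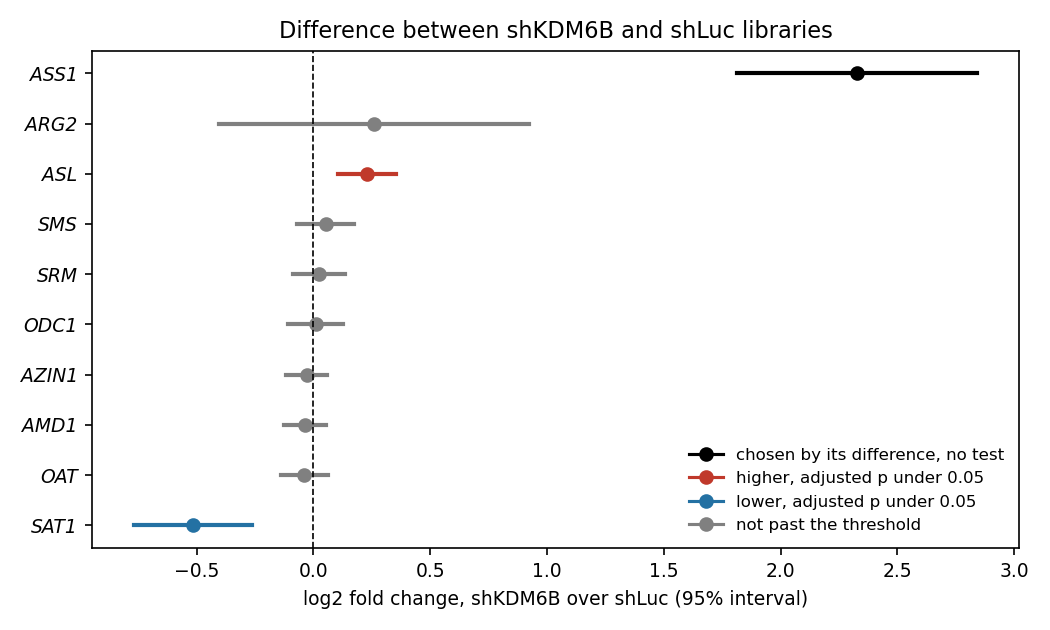
Log2 fold change of the 10 genes, shKDM6B over shLuc, with 95% intervals from the fit over all genes, ordered by size. ASS1, shown in black because its difference chose it, lies at 2.33, SAT1 lies at -0.52, ASL lies at 0.23, and the intervals of the other 7 genes include 0.

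Per kilobase of exon, the order of the 10 levels was the same in both groups. ODC1 led with 112 CPM per kilobase in shKDM6B and 111 in shLuc, and SRM followed with 106 in shKDM6B and 104 in shLuc. OAT, AZIN1, AMD1 and SMS lay between 20.7 and 24.6 CPM per kilobase in shKDM6B and between 19.9 and 25.2 in shLuc, and ASL had 14.9 in shKDM6B and 12.7 in shLuc. SAT1 had 4.05 in shKDM6B and 5.76 in shLuc, ASS1 had 3.74 in shKDM6B and 0.753 in shLuc, and ARG2 was last with 0.907 in shKDM6B and 0.723 in shLuc. Neighbours whose libraries overlapped were ODC1 and SRM in both groups, OAT and AZIN1 in both groups, AZIN1 and AMD1 in shKDM6B, SAT1 and ASS1 in shKDM6B, and ASS1 and ARG2 in shLuc. The level of ASS1 thus lay beside that of ARG2 in shLuc and beside that of SAT1 in shKDM6B. For ODC1 and SRM, whose counts grew less with depth than the totals, the part of that in these levels was not tested.

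Around these genes, 77 others were listed by function in 7 groups, of which 64 could be tested: 27 rose (42.2%), 11 fell (17.2%) and 26 did not pass, beside 20.1% higher and 18.9% lower over all tested genes. With TMM factors from the sparsely counted genes, 27 rose and 5 fell. Their median log2 fold change was 0.09, beside -0.01 over all tested genes. The lists were drawn up with earlier results of these data known, and nothing particular to them is read from these counts. The genes described are up to 4 per list with the smallest p, and SLC7A3, OTC, ARG1, NOS2, PRODH, PAOX and EIF5A were added after their values were seen.

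Transport of arginine and other cationic amino acids, not only their uptake, was the group with the largest single change. Of its 7 tested genes, 5 rose (71.4%) and 1 fell (14.3%), beside 20.1% and 18.9% over all tested genes. SLC7A2, a plasma membrane carrier of arginine, lysine and ornithine, had 268, 312 and 374 counts in shKDM6B replicates 1 to 3 and 54, 80 and 89 in shLuc replicates 1 to 3. It averaged 36.3 ± 2.0 CPM in shKDM6B and 8.73 ± 1.2 CPM in shLuc (SD, n = 3 each), and every shKDM6B library was far above every shLuc library. Its log2 fold change was 2.04 (SE 0.10, adjusted p = 1.17e-12). SLC7A1, the widely expressed carrier of the same family, rose by 0.24 on the log2 scale (SE 0.046, adjusted p = 0.00018), at 279 ± 12 CPM in shKDM6B and 235 ± 6.7 CPM in shLuc. SLC66A1, listed in the files under its older symbol PQLC2, exports cationic amino acids from lysosomes and rose by 0.45. SLC7A6, part of an exchanger at the plasma membrane, fell by 0.24. SLC7A3 was at 0 in all libraries.

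In the urea cycle and aspartate supply, 1 of 8 tested genes rose (12.5%) and 3 fell (37.5%). Over all tested genes, 20.1% were higher and 18.9% lower. MDH1, the cytosolic malate dehydrogenase, rose by 0.31 on the log2 scale, to 137 ± 7.2 CPM in shKDM6B, against 110 ± 3.1 CPM in shLuc. GOT1, which makes or uses cytosolic aspartate, a substrate of ASS1, fell by 0.22 to 94.1 ± 1.7 CPM in shKDM6B, against 110 ± 2.9 CPM in shLuc. FH, which hydrates the fumarate that ASL releases, had a log2 fold change of -0.18 that did not pass with TMM factors from the sparsely counted genes (-0.12, adjusted p = 0.18). CPS1, which makes carbamoyl phosphate in mitochondria, fell by 0.76 at low counts. These were 31, 25 and 44 in shKDM6B replicates 1 to 3, against 49, 59 and 55 in shLuc replicates 1 to 3. Without the 3 libraries highest in KRT5 the log2 fold change of CPS1 was -0.52, with a lone shKDM6B library left and the call lost. OTC and ARG1, the liver enzymes on either side of this route, had at most 2 counts in any library and were not tested.

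Among enzymes that use arginine or its methylated forms, 6 of 16 tested genes rose (37.5%) and 4 fell (25%). Over all tested genes, 20.1% were higher and 18.9% lower. CARM1, an arginine methyltransferase of histones and other proteins, rose by 0.45 on the log2 scale (SE 0.042, adjusted p = 1.68e-08), to 225 ± 5.5 CPM in shKDM6B, against 165 ± 1.9 CPM in shLuc. DDAH1 and DDAH2, which break methylated arginine down to citrulline, the substrate of ASS1, rose by 0.43 and 0.46. DDAH1 had 61.5, 61.2 and 66.4 CPM in shKDM6B replicates 1 to 3 and 44.4, 47.2 and 49.0 CPM in shLuc replicates 1 to 3. PRMT3, another arginine methyltransferase, had a log2 fold change of 0.26. Without the 3 libraries highest in KRT5 it was 0.21, with a lone shKDM6B library left and the call lost. NOS2, the inducible nitric oxide synthase, was at 0 in all libraries.

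The route between glutamate, ornithine and proline had 5 of 8 tested genes higher (62.5%) and 1 lower (12.5%). Over all tested genes, 20.1% were higher and 18.9% lower. ALDH18A1, which makes the precursor shared by proline and ornithine from glutamate, had 256, 252 and 243 CPM in shKDM6B replicates 1 to 3 and 185, 181 and 170 CPM in shLuc replicates 1 to 3. Its log2 fold change was 0.49 (SE 0.045, adjusted p = 1.32e-08). PYCR1, which completes proline, rose by 0.50 (SE 0.046, adjusted p = 1.06e-08), at 138 ± 4.5 CPM in shKDM6B and 97.0 ± 3.7 CPM in shLuc. In both genes the groups were well apart, whereas OAT, which joins ornithine to this route, had overlapping groups. ALDH4A1, the last step of proline breakdown to glutamate, rose by 0.48, and PYCR3 (PYCRL in the files), which reduces the ornithine-derived precursor, rose by 0.23. PRODH, the first enzyme of proline breakdown, had 13, 8 and 18 counts in shKDM6B replicates 1 to 3 and 2, 5 and 8 in shLuc replicates 1 to 3, and was below the filter.

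Of 12 tested genes that control, oxidise or carry polyamines, 4 were higher (33.3%) and 2 lower (16.7%), beside 20.1% and 18.9% over all tested genes. SMOX, which oxidises spermine back to spermidine, had 555, 594 and 696 counts in shKDM6B replicates 1 to 3 and 385, 397 and 434 in shLuc replicates 1 to 3. Its log2 fold change was 0.55 (SE 0.058, adjusted p = 1.01e-07), with 70.4 ± 0.36 CPM in shKDM6B and 48.4 ± 4.0 CPM in shLuc (SD, n = 3 each). PAOX, the oxidase that acts on what SAT1 has acetylated, also rose, by 0.38. For each SAT1 count there were 7.40, 6.46 and 7.10 SMOX counts in shKDM6B replicates 1 to 3, against 4.05, 2.76 and 3.42 in shLuc replicates 1 to 3, a ratio formed after the values were seen. ATP13A3, a polyamine-transporting ATPase, rose by 0.29. SLC18B1, a vesicular polyamine transporter, fell by 0.38, and OAZ2, an antizyme that AZIN1 counteracts, fell by 0.24.

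The remaining 2 groups held the methyl donor and the use of spermidine in translation. In S-adenosylmethionine and methylthioadenosine metabolism, 4 of 9 tested genes rose (44.4%) and none fell, beside 20.1% and 18.9% over all tested genes. MTAP, which recycles the by-product of both polyamine synthases, had a log2 fold change of 0.24. Without the 3 libraries highest in KRT5 it was 0.17, with a lone shKDM6B library left and the call lost. MTR, methionine synthase, rose by 0.16. AHCY and MRI1 had log2 fold changes of 0.13 and 0.14 that were past the threshold in the fit reported here and not in 7 and 9 of the 16 alternatives. The call of AHCY was lost without shLuc replicate 2 or 3 or without shKDM6B replicate 1 or 2, and that of MRI1 without any 1 library except shLuc replicate 3. In the hypusine group, spermidine is used to modify the translation factor eIF5A. There 2 of 4 tested genes were past the threshold and higher (50%), beside 20.1% over all tested genes. EIF5A2, the second form of that factor, rose by 0.68 (SE 0.11, adjusted p = 3.11e-05) to 18.1 ± 1.8 CPM in shKDM6B, against 11.3 ± 0.44 CPM in shLuc. EIF5A, the common form, had a log2 fold change of -0.03 (adjusted p = 0.66). It was denser, at 0.513 counts per exon base against 0.023 for EIF5A2. Between the shallowest and deepest library its counts went from 1399 to 1542 in shKDM6B and from 1356 to 1479 in shLuc. Like those of ODC1 and SRM, they grew less than the totals, and the part of that in its difference was not tested. DOHH, which completes the modification, had a log2 fold change of 0.12 that did not pass in 12 of the 16 alternatives, leaving out any of the 6 libraries among them.

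**Figure D4:**
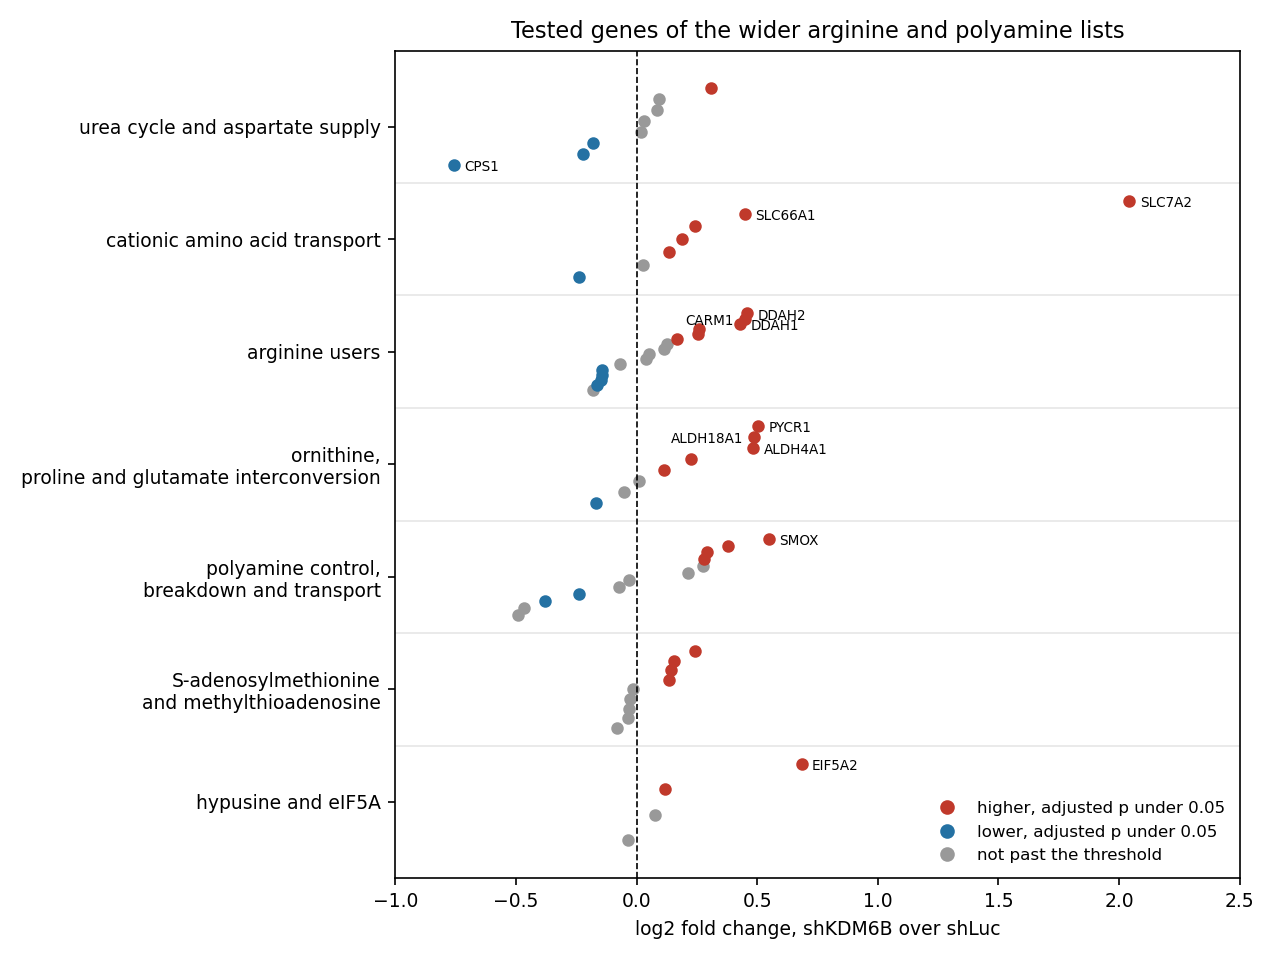
Log2 fold change, shKDM6B over shLuc, of the 64 tested genes in the 7 wider lists, 1 point per gene; red points are past the threshold and higher, blue points past it and lower, grey points not past it, and red and blue points at 0.4 or more in size are named. SLC7A2 stands apart at 2.04, CPS1 lies lowest at -0.76, and the remaining points lie between -0.49 and 0.68.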

How the data were processed

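Per the labels' protocols, total RNA was made into libraries with a kit that, as named, does not mark strand. The authors deposited raw counts per gene and library. They also deposited a table of normalized values, a signal equal to each library's counts divided by 1 factor; 56609 genes were matched and 28 names had become dates. GRCh37 (hg19), STAR, featureCounts and DESeq are named in the submitters' processing notes. Not given in the sources used here are versions, annotation, strand setting and the handling of multi-mapping or duplicate reads. The count files give no coordinates, so sequences and exon lengths come from GRCh38 annotation. In each library 1 line whose name had become a date was left out.

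The deposited counts went into edgeR 4.0.16 under R 4.3.3 (filterByExpr, TMM scaling, glmQLFit and glmQLFTest, group as the single term). Benjamini-Hochberg adjustment covered all 13839 tested genes, and the threshold was an adjusted p under 0.05. Adjusted p-values with no tool named are edgeR's. SEs follow from the quasi-likelihood statistic, CPM is TMM-scaled, and Poisson intervals are 95% and cover counting error only. The labels do not say that cultures were separate, so the p-values reflect only how these libraries vary, possibly for technical reasons.

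The members and lists were chosen with earlier results of these data known. Named were all members, KDM6B, pseudogene rows of members, up to 4 genes per list with the smallest p among those past the threshold, and the 5 genes most like ASS1. Alternatives were other scalings and filters, leaving out libraries, a replicate block, DESeq2 1.42.0, limma 3.58.1 (voom, and trend on log2 of the deposited normalized values plus 1) and a threshold of 0.01. Older symbols were matched for 6 genes. The coding sequence of ASS1 is not reported here.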

Additional observations from a re-analysis of the deposited data

How the results depend on the processing

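Of the 10 genes, 9 kept their side of the threshold under all 16 alternatives, and no past-threshold value changed sign. ASL was the exception, so that 1 gene was higher without the 3 libraries highest in KRT5 and with DESeq2. Without those libraries a lone shKDM6B library remains, whose spread is taken from shLuc. It called 17 list genes higher and 6 lower, against 27 and 11 in the fit reported. List genes called lower numbered 5 with TMM factors from the sparsely counted genes, and 7 both with DESeq2 and at an adjusted p under 0.01. Over all genes DESeq2 called 3432 (1838 higher, 1594 lower), against 5405 in edgeR. Leaving out each library in turn gave 4533 to 5030 calls. Apart from fewer samples or a stricter threshold, the cause of these shifts was not tested. Of the 26 list genes named by rule, 19 kept every call. Pairing of the libraries by replicate number was not settled, with correlations of 0.12, -0.08 and 0.15 between same-numbered libraries. With the replicate number as a block, 6218 genes were past the threshold, with 2 members higher and 1 lower, and 2 of the 3 numbers correlated best with themselves. Depth limits ARG2 and the shLuc level of ASS1.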
